A study of Arabidopsis thaliana with 36 samples.

Results

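Non-polysomal RNA is the part of the cell's RNA that stays near the top of a sucrose gradient because it carries few or no ribosomes, and the comparison described here is its change between midday and evening. The 6 arrays compared were 3 replicates harvested at 12pm and 3 at 6pm, of 36 arrays in all, and they were chosen by their labels alone. All plants overexpressed CCA1 (CCA1-ox) in the Columbia background, were 10 days old and were sampled as the aerial part. The medium was agar with Murashige and Skoog salts at full strength and 1% sucrose, and each day had a light period of 16 h and a dark period of 8 h. Lights came on at 6am, so 12pm was 6 h and 6pm 12 h into the light, and the lights went off 4 h after the 6pm harvest. The promoter of the transgene and the number of lines are not stated in the labels, and wild-type plants are not analysed here, so no value separates the transgene from the time of day. Nothing in the labels says that the replicates were separate plants or cultures. The p-values and SE thus reflect only how arrays spread within groups, estimated over all 36 arrays. Some of that spread may be technical.

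CCA1 is a MYB-type transcription factor that peaks around dawn in wild-type plants and represses genes of the afternoon and evening. Plants that express it constantly lose much of their rhythm in constant conditions, while light and dark can still drive daily changes. RNA outside polysomes includes messages waiting to be translated, stored or degraded, RNA still in the nucleus and transcripts that recruit ribosomes poorly. A rise in this fraction can therefore go with more transcript in the cell or with fewer ribosomes per transcript, and the same step in small and large polysomal RNA is given below beside it. In bulk tissue, fewer cells of a type and less RNA per cell cannot be told apart.

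Each probe set has a log2 expression value, on which a difference of 1 is a 2-fold change. Of 22810 probe sets, 12635 were kept for testing because they reached a value of 5 on at least 3 arrays. From 12pm to 6pm 1478 of these changed in non-polysomal RNA (11.7% of those tested) at a limma adjusted p under 0.05. Of them 718 (5.68%) were higher and 760 (6.02%) lower at 6pm, around a median difference of -0.02 over all probe sets. The change reached 2-fold in 305 of the called probe sets (2.41%), 195 higher and 110 lower. In 82 of these at least 1 of the group means lay under the filter value of 5, in the low part of a scale that starts at 2.15. The differences ran from -2.52 to 3.65. The 3 arrays of 1 time all lay on one side of the 3 of the other in 4245 probe sets (33.6%), among them 1372 of those called. In the annotation used here 745 called probe sets named 1 gene and 704 had no gene name, so the genes below cover only part of the change.

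**Figure D1:**
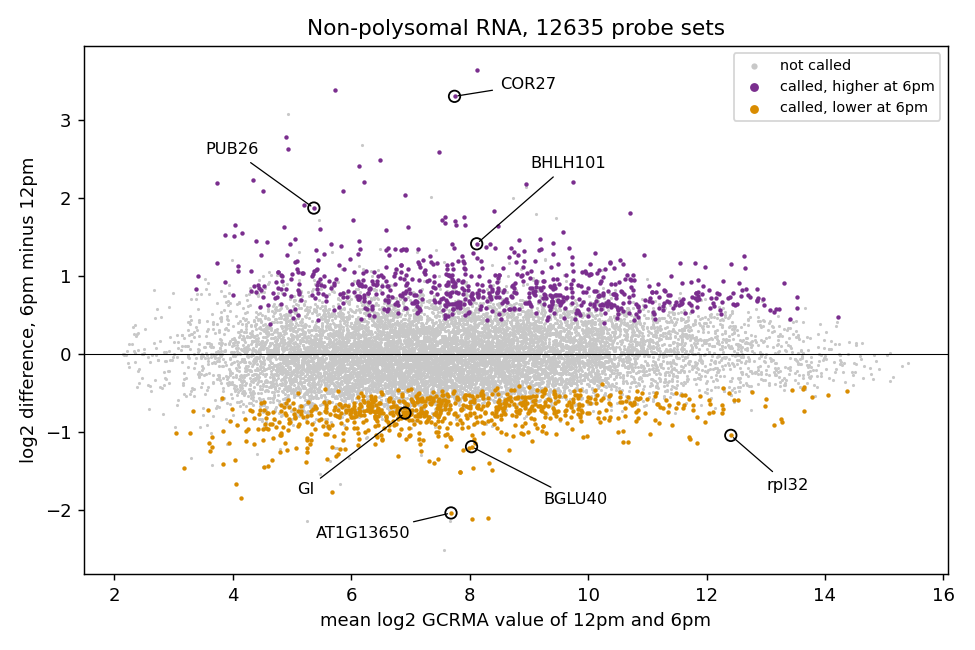
Difference from 12pm to 6pm in non-polysomal RNA (log2) against the mean log2 value of both times, 1 point for each of 12635 probe sets. The 718 called probe sets above 0 and the 760 below it are coloured and COR27, at 3.31, stands above the other named genes.

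The 6pm arrays were not equally far from midday. The 6pm replicate 1 correlated at 0.983 with each of the other 6pm arrays, which correlated at 0.992 with each other, and at 0.972 to 0.980 with the 12pm arrays. Over the probe sets called higher its median distance from the 12pm mean was 0.62, against 0.91 and 0.89 in replicates 2 and 3. Without it 1567 probe sets were called, but without 6pm replicate 2 only 445, without 6pm replicate 3 only 538, and without 12pm replicate 1 only 522. Without 12pm replicate 2, 778 were called. Of the 1478 calls 273 held whichever of the 6 arrays was left out, and genes that did so are named as such. Fitted on the 12 non-polysomal arrays alone 220 probe sets were called and 22 of the 39 called genes named by rule were lost, and on the 6 arrays alone 602 and 12. The signal of a 5′ actin control was 2.90 to 4.00 on the 12pm arrays and 4.02 to 5.16 on the 6pm arrays. That of a 5′ ubiquitin control went the other way, with 9.96 to 10.38 and 9.70 to 9.88, and a 5′ GAPDH control overlapped, with 4.93 to 5.94 and 5.69 to 6.43. The 3′ minus 5′ signal of all 3 controls overlapped between the times. It was 7.91 to 9.01 at 12pm and 7.53 to 8.20 at 6pm for actin. For ubiquitin it was 3.47 to 3.86 and 3.52 to 3.80, and for GAPDH 2.86 to 3.44 and 2.81 to 3.31. The mean of the poly(A) spike-in probe sets, added as controls, was 8.32 ± 0.17 and 8.20 ± 0.18 (SD, n = 3). Shifting arrays to equal spike-in signal moved the median difference of all probe sets from -0.02 to 0.10 and left 4 calls, those of COR27 and 3 unnamed probe sets, so each other call below was lost under that scaling. The part of RNA quality in the calls was not tested.

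The largest change of a named gene was that of COR27, a cold-induced gene under control of the circadian clock. Its value was 6.28, 5.85 and 6.15 on the 12pm arrays and 9.72, 9.24 and 9.23 on the 6pm arrays. All 6pm arrays lay far above all 12pm arrays, and the call held with any array left out. The rise was 3.31 ± 0.21 (log2 difference ± SE of the fit, n = 3 arrays per group), a 9.90-fold change with an adjusted p of 4.40e-12. The same transcript rose by 3.11 in small polysomal and 2.41 in large polysomal RNA. In non-polysomal RNA its level was higher still at 12am (12.28 ± 0.18, SD, n = 3) and at 6am (12.69 ± 0.17), so the midday value was the lowest of the 4 harvests.

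GIGANTEA (GI), the evening clock gene that also acts in flowering, moved the other way. It read 7.12, 7.54 and 7.21 at 12pm and 6.74, 6.24 and 6.61 at 6pm. The groups did not overlap, but the gap was small: GI fell by 0.76 ± 0.25 (adjusted p = 0.0448). The call held only without 6pm replicate 1 and was lost without any other of the arrays, with an adjusted p of up to 0.206. Its level at 6am was 6.17 ± 0.66 and at 12am 5.87 ± 0.45, both below midday. The other measured member of the clock list, AT5G52660, differed by -0.12 (adjusted p = 0.780). The other measured gene of the clock output list, AT4G33980, differed by 0.71 ± 0.30 (adjusted p = 0.116), from 3.03 ± 0.34 to 3.74 ± 0.39, and reached 7.93 ± 0.83 at 12am. Of 22 listed clock genes 2 were measured under a gene name, and of 15 clock output genes 2.

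The 12 largest called rises among named genes, taken where the arrays of the groups did not overlap, ran from 3.31 down to 1.65 and the 12 largest falls from -2.04 to -1.30. After COR27 came AT3G04640 and AT4G27280, which are not equally raised on the 6pm arrays. AT3G04640 read 5.69, 4.67 and 4.99 at 12pm and 5.71, 8.19 and 8.08 at 6pm. AT4G27280 read 8.82, 8.50 and 8.61 at 12pm and 9.11, 11.87 and 11.56 at 6pm. In both, 6pm replicate 1 lay next to the 12pm arrays and the other 6pm arrays well above them. Their differences were 2.21 ± 0.70 (adjusted p = 0.0398) and 2.21 ± 0.64 (adjusted p = 0.0249). The first call held only without 6pm replicate 1, and the second only without that array or 12pm replicate 3, with adjusted p-values of up to 0.191 and 0.158.

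Other large rises were even across the 6pm arrays. AT4G39675 read 2.61, 2.15 and 3.16 at 12pm and 4.83, 4.83 and 4.85 at 6pm, a rise of 2.20 ± 0.49 (adjusted p = 0.00569) between values that all lie under 5. AT2G21130 read 6.53, 6.56 and 6.94 at 12pm and 8.19, 8.65 and 8.34 at 6pm, a rise of 1.72 ± 0.22 (adjusted p = 2.55e-05). Both calls held with any array left out. AT1G48750 and AT4G33550 rose by 1.71 ± 0.34 (adjusted p = 0.00311) and 1.68 ± 0.44 (adjusted p = 0.0133) and differ in that the first held with any array left out, while the second was lost without 6pm replicate 2 or 12pm replicates 1 or 2 (adjusted p up to 0.0934). AT4G33550 read 6.17, 6.45 and 7.61 at 12pm and 8.42, 8.46 and 8.39 at 6pm, so its midday arrays were spread and its evening arrays were not. MOB1-like, a relative of the Mob1 proteins that activate kinases of cell division and growth, rose by 1.66 ± 0.42 (adjusted p = 0.0118) and was lost without 6pm replicate 2 or 12pm replicate 1 (adjusted p up to 0.0710). AT1G07050 rose by 1.66 ± 0.27 (adjusted p = 0.000447) from 3.21 ± 0.07 to 4.87 ± 0.36. AT3G53980 rose by 1.76 ± 0.40 (adjusted p = 0.00646), with 0.0507 without 12pm replicate 1, and AT5G25240 by 1.65 ± 0.56 (adjusted p = 0.0499), held only without 6pm replicate 1.

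PUB26, a U-box ubiquitin ligase known from immune and cold signalling, read 4.91, 4.65 and 3.73 at 12pm and 5.84, 6.75 and 6.33 at 6pm. The groups did not overlap and the rise was 1.87 ± 0.50 (adjusted p = 0.0150). The call was lost without 6pm replicates 2 or 3 or without 12pm replicate 3 (adjusted p up to 0.0892). Its close relative PUB25 rose by 1.06 ± 0.26 (adjusted p = 0.0101), from 4.21, 2.94 and 3.51 to 4.84, 4.77 and 4.23, and was lost without 6pm replicate 2 or 12pm replicate 2 (adjusted p up to 0.0876).

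**Figure D2:**
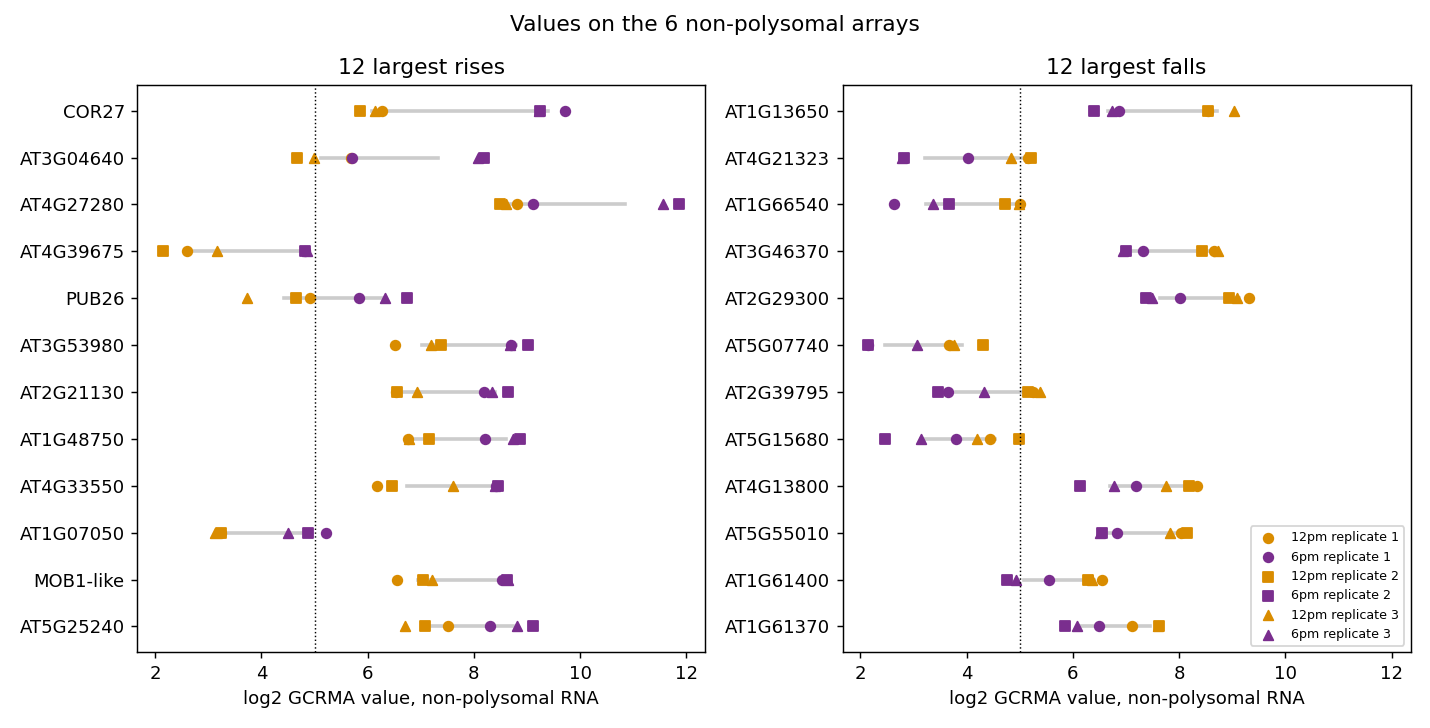
Log2 values on each of the 6 non-polysomal arrays for the 12 largest called rises (left) and falls (right) among named genes, with colour for the harvest, symbols for the replicate and a grey line between the group means. The dotted line marks the filter value of 5, and in AT3G04640 and AT4G27280 the 6pm replicate 1 (5.71 and 9.11) lies by the 12pm arrays.

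The largest fall of a named gene was that of AT1G13650. It read 8.55, 8.54 and 9.03 at 12pm and 6.86, 6.40 and 6.73 at 6pm. The groups were well apart and the difference was -2.04 ± 0.21 (adjusted p = 4.18e-07). It fell as far in small polysomal (-1.90) and large polysomal RNA (-2.08), and stood at 2.42 ± 0.29 at 6am and 2.93 ± 0.36 at 12am. AT3G46370 followed the same course, from 8.66, 8.42 and 8.72 to 7.32, 7.00 and 6.94, a difference of -1.52 ± 0.20 (adjusted p = 2.90e-05), with 3.61 ± 0.60 at 6am.

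Differences of -1.85 ± 0.39 in AT4G21323, -1.67 ± 0.30 in AT1G66540, -1.46 ± 0.30 in AT5G07740 and -1.41 ± 0.27 in AT5G15680 ended at values under 5 on all 6pm arrays. AT2G29300 (-1.49 ± 0.27), AT4G13800 (-1.39 ± 0.24), AT1G61400 (-1.31 ± 0.30) and AT1G61370 (-1.30 ± 0.29) started from higher levels. AT2G39795 (-1.45 ± 0.22) fell from values of 5.15 to 5.38 to values of 3.46 to 4.32. The 11 falls named so far all held with any array left out, at adjusted p-values of up to 0.0495. In the fit on the 12 non-polysomal arrays alone 3 of them were lost, AT5G07740 (adjusted p = 0.0506), AT5G15680 (0.0668) and AT1G61370 (0.0688), and on the 6 arrays alone AT5G15680 was lost (0.0556). The twelfth, AT5G55010, differed by -1.37 ± 0.36 (adjusted p = 0.0151) and was lost without 6pm replicates 2 or 3 or 12pm replicates 1 or 2 (adjusted p up to 0.0647).

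Genes of nutrient and carbon metabolism appeared in several lists. BHLH101, a transcription factor of the iron-deficiency response, read 7.54, 7.58 and 7.12 at 12pm and 8.58, 9.03 and 8.87 at 6pm. All 6pm arrays were above all 12pm arrays, and the rise was 1.42 ± 0.35 (adjusted p = 0.00973, and 0.0577 without 6pm replicate 2). It rose as well in small polysomal (1.42) and large polysomal RNA (1.82), and its levels at the other harvests were low, at 3.74 ± 0.38 at 12am and 4.32 ± 0.51 at 6am. Of the other measured members of the iron list, AT1G47400 differed by 1.08 ± 0.49 (adjusted p = 0.149) and PYE, a regulator of the same response, by 0.33 ± 0.22 (adjusted p = 0.317).

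SIR encodes sulfite reductase, the plastid enzyme that makes sulfide for cysteine. It read 6.49, 6.27 and 5.99 at 12pm and 6.96, 8.13 and 7.71 at 6pm. The groups did not overlap, and the rise was 1.35 ± 0.38 (adjusted p = 0.0215). The call was lost without 6pm replicates 2 or 3 or 12pm replicates 2 or 3 (adjusted p up to 0.137). MCCA, a subunit of the mitochondrial enzyme that degrades leucine when carbon runs short, read 11.27, 10.78 and 10.89 at 12pm and 10.54, 10.15 and 10.15 at 6pm. It fell by 0.70 ± 0.19 (adjusted p = 0.0152, and up to 0.107 without 6pm replicates 2 or 3 or 12pm replicate 1). Its level was far higher at 12am (13.01 ± 0.17) and 6am (13.52 ± 0.34).

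**Figure D3:**
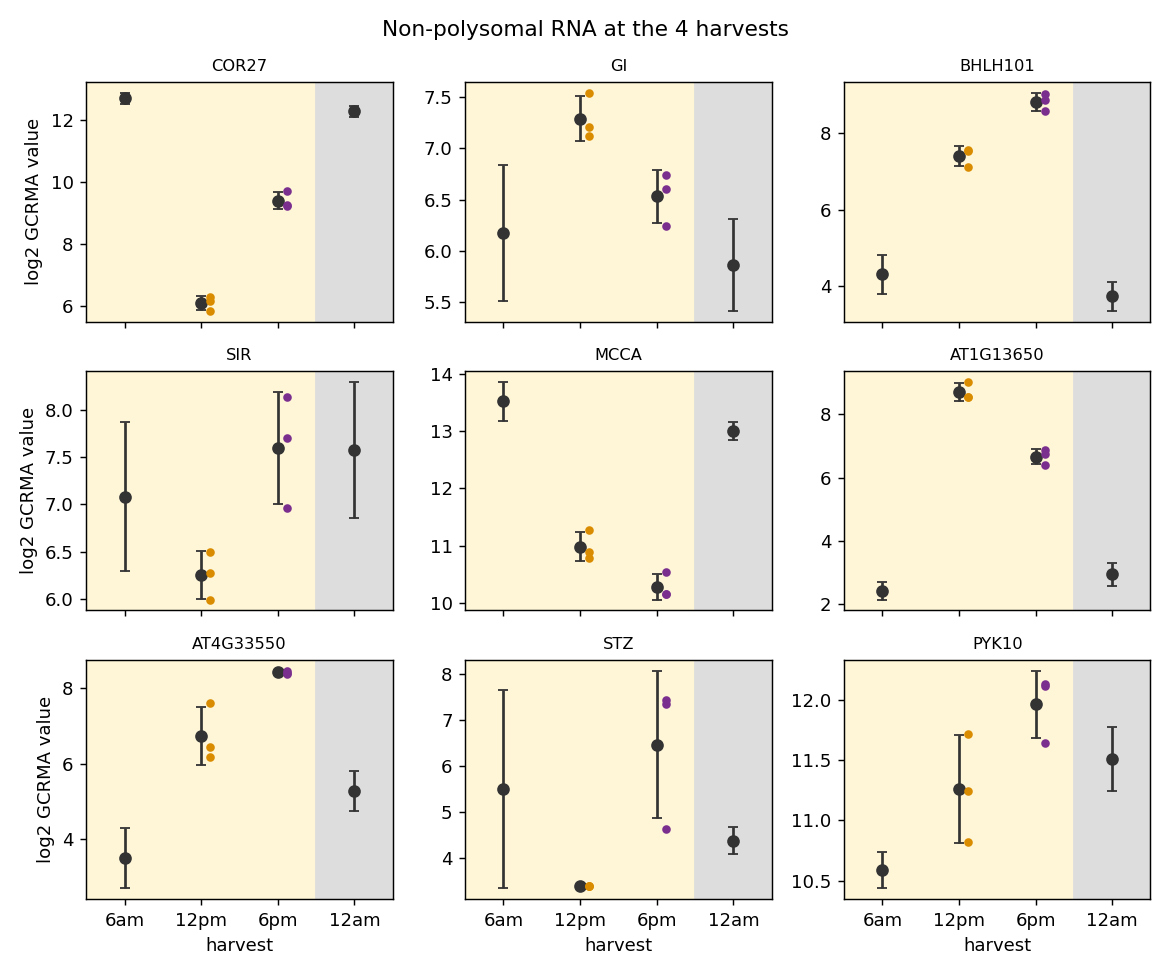
Mean log2 value ± SD (n = 3 arrays) in non-polysomal RNA at the 4 harvests for 9 named genes, with the single arrays of 12pm and 6pm beside the means, light shading for the light period that began at 6am and grey for 12am in the dark. COR27 was lowest at 12pm (6.09) and MCCA at 6pm (10.28), while BHLH101 was highest at 6pm (8.83) and AT1G13650 at 12pm (8.70). At 6am, shaded as light, COR27 and MCCA were at their highest (12.69 and 13.52).

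Of the 15 measured genes of the photosynthesis and starch lists 1 was called, where 11.7% of all probe sets were, so the count says little about these genes. All 3 measured light-harvesting genes, LHCB4.1, LHCB4.2 and LHCB4.3, differed by -0.01, -0.07 and 0.32 and none was called. Of the 3 measured Calvin cycle genes none was called: PRK (phosphoribulokinase) differed by 0.60 ± 0.21 (adjusted p = 0.0657), SBPASE by 0.30 and RCA (Rubisco activase) by 0.21. These leaf genes were strongly expressed, with 12.62 to 14.07 for the Calvin cycle genes over both times and 14.74 to 14.93 for LHCB4.1. Among 5 nuclear photosystem and ATP synthase genes 1 was called, ATPC1, the gamma subunit of the chloroplast ATP synthase, with 0.64 ± 0.19 (adjusted p = 0.0264, lost without 6pm replicates 2 or 3 or 12pm replicates 1 or 2, up to 0.159). None of 4 starch genes was called, with APL3 at -0.59 (adjusted p = 0.123) and the phosphoglucan kinase PWD at 0.28 (adjusted p = 0.417).

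The stress lists were led by STZ, a zinc finger repressor induced by cold, salt and wounding. It read 3.39 on all 3 arrays at 12pm, and 4.62, 7.34 and 7.44 at 6pm. The 12pm arrays stood at the same low value and the 6pm arrays were widely spread, and the difference of 3.08 ± 1.05 did not pass (adjusted p = 0.0518). With the extract as a random block it did (adjusted p = 0.0136). The other measured members of the wound and calcium list, CML38 and WRKY53, differed by 0.66 and 0.18 (adjusted p = 0.655 and 0.879). None of the 4 cold response genes was called, and COR15B, COR47 and COR15A differed by 0.82, 0.50 and 0.45. Neither of 2 heat response genes was called in non-polysomal RNA, though AT1G53540 differed by 0.33 there and fell by 1.79 ± 0.43 in large polysomal RNA (adjusted p = 0.0283). None of 5 auxin and growth genes, none of 3 light signalling genes and neither of 2 flavonoid genes was called. Of all probe sets 11.7% were, so the lack of calls in lists this short gives no result about these genes. Of 3 genes with an upstream reading frame 1 fell, AT5G15950, by 0.77 ± 0.23 (adjusted p = 0.0306, lost without 6pm replicates 2 or 3 or 12pm replicates 1 or 2), while SAMDC, which makes the precursor for polyamines, differed by -0.57 (adjusted p = 0.0843).

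Markers of other tissues were few under gene names. Of 4 root markers PYK10 was measured. It is a beta-glucosidase of endoplasmic reticulum bodies that is strongest in roots and also present in seedling hypocotyls and cotyledons. It read 10.82, 11.24 and 11.71 at 12pm and 11.64, 12.11 and 12.13 at 6pm, so the groups overlapped, and it rose by 0.71 ± 0.22 (adjusted p = 0.0330, lost without 6pm replicates 2 or 3 or 12pm replicates 1 or 2, up to 0.220). The part of root or hypocotyl tissue in the results was not tested. The stomatal marker FMA differed by 0.28 (adjusted p = 0.404). Of 7 seed and 4 vascular markers 0 were measured under a gene name, and so were 0 of 5 genes of ribosome biogenesis.

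Messages of cytosolic ribosomal proteins, which build the ribosome and whose translation changes with light and carbon supply, moved by small amounts. Of 72 measured genes of the large (60S) subunit 13 were called higher and 1 lower, where 5.68% and 6.02% of all probe sets were. Their median difference was 0.15, beside -0.02 over all probe sets, and 46 of 72 were positive. The array medians of the 72 genes were 12.01, 12.22 and 12.19 at 12pm and 12.37, 12.37 and 12.38 at 6pm. The evening medians were nearly equal and all lay above the midday ones.

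The clearest of the 60S rises was AT5G67510, with 8.22, 8.68 and 8.71 at 12pm and 9.80, 10.09 and 9.78 at 6pm. It rose by 1.35 ± 0.30 (adjusted p = 0.00578) and held with any array left out, but not in the fit on the 12 non-polysomal arrays alone (adjusted p = 0.0562). Every other ribosomal call, of the 60S and the 40S list, was lost in that fit as well (adjusted p of 0.0504 to 0.160). AT3G16780 rose by 1.25 ± 0.29 (adjusted p = 0.00783, and 0.0799 without 12pm replicate 1) and AT5G02870 by 0.65 ± 0.16 (adjusted p = 0.00815, lost without 6pm replicates 2 or 3 or 12pm replicate 1, up to 0.0588). The one fall, AT3G13580, went from 12.22, 12.30 and 12.70 to 11.59, 11.41 and 11.62, a difference of -0.87 ± 0.21 (adjusted p = 0.00997, and 0.0588 without 6pm replicate 2).

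Of 41 measured genes of the small (40S) subunit 3 were higher and 0 lower (limma, with a median difference of 0.14), and the share higher is near the 5.68% of all probe sets. AT2G32060 rose by 0.92 ± 0.19 (adjusted p = 0.00426), from 10.87, 11.17 and 11.34 to 11.93, 12.10 and 12.11, and held with any array left out. AT3G04840 and AT3G57490 rose by 0.77 ± 0.25 and 0.66 ± 0.18, the first lost without 6pm replicates 2 or 3 or 12pm replicates 1 or 2 and the second without 6pm replicate 2 or 12pm replicate 1. The count of 60S genes called higher depended on several arrays: it was 11 without 6pm replicate 1, 1 without 12pm replicate 1, 3 without 6pm replicate 2, 4 without 6pm replicate 3, 8 without 12pm replicate 2 and 16 without 12pm replicate 3. Over all 12635 probe sets the count called higher was 812, 228, 204, 239, 405 and 816 in the same order. The dependence on single arrays was thus not particular to the 60S list. Under cyclic loess scaling 12 genes of the 60S list were higher and 5 lower, and of the 40S list 3 and 4. Their medians were 0.05 and 0.07. That scaling called 666 of all probe sets higher and 1018 lower. Ribosomal protein genes come in near-identical pairs, and probe sets may read both.

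Transcripts of the chloroplast genome lack a cytosolic cap and are translated by ribosomes in the plastid, and the oligo(dT) priming used here may take them up only in part. Of 66 measured plastid-encoded genes 0 were called higher (limma) and 2 lower in non-polysomal RNA, where 5.68% and 6.02% of all probe sets were, so the calls give no result about these genes as a group. Of the 66 differences 20 were positive, with a median of -0.23, beside 6104 positive among 12635 probe sets and a median of -0.02. In the small polysomal fraction their median was 0.25 and in the large polysomal fraction 0.66, beside -0.01 and -0.02 over all probe sets. In the large polysomal fraction 64 of 66 were positive, though none was called in either. The shift was spread over the complexes: the median in non-polysomal and large polysomal RNA was -0.38 and 0.61 for 9 ndh genes of the NADH dehydrogenase-like complex, -0.20 and 0.84 for 6 pet genes of cytochrome b6f, and -0.34 and 0.76 for 7 rpl genes of the large ribosomal subunit. It was -0.23 and 0.42 for 15 psb genes of photosystem II and -0.01 and 0.57 for 6 atp genes of the ATP synthase. The array medians over the 66 genes were 11.16, 11.31 and 10.70 at 12pm and 10.56, 10.51 and 10.77 at 6pm. The groups overlapped, since 12pm replicate 3 lay at 10.70, and without 12pm replicate 2 the median difference was -0.04.

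The 2 falls were those of rpl32, a protein of the plastid ribosome, and ndhC, a subunit of the NADH dehydrogenase-like complex. The rpl32 values were 13.13, 12.69 and 12.97 at 12pm and 11.82, 11.60 and 12.24 at 6pm, a difference of -1.04 ± 0.33 (adjusted p = 0.0401). The ndhC values were 13.05, 12.72 and 12.73 and then 12.19, 12.05 and 12.49, a difference of -0.59 ± 0.20 (adjusted p = 0.0496). In both genes the groups did not overlap, and both calls were lost without any 1 of the 6 arrays, with adjusted p-values of up to 0.165 and 0.208. The plastid RNA polymerase gene rpoA differed by -0.70 (adjusted p = 0.0762). None of 5 mitochondrial-encoded transcripts was called, which says little where 11.7% of all probe sets were. Among them cox1 spread from 9.75 to 11.95 on the 12pm arrays alone.

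**Figure D4:**
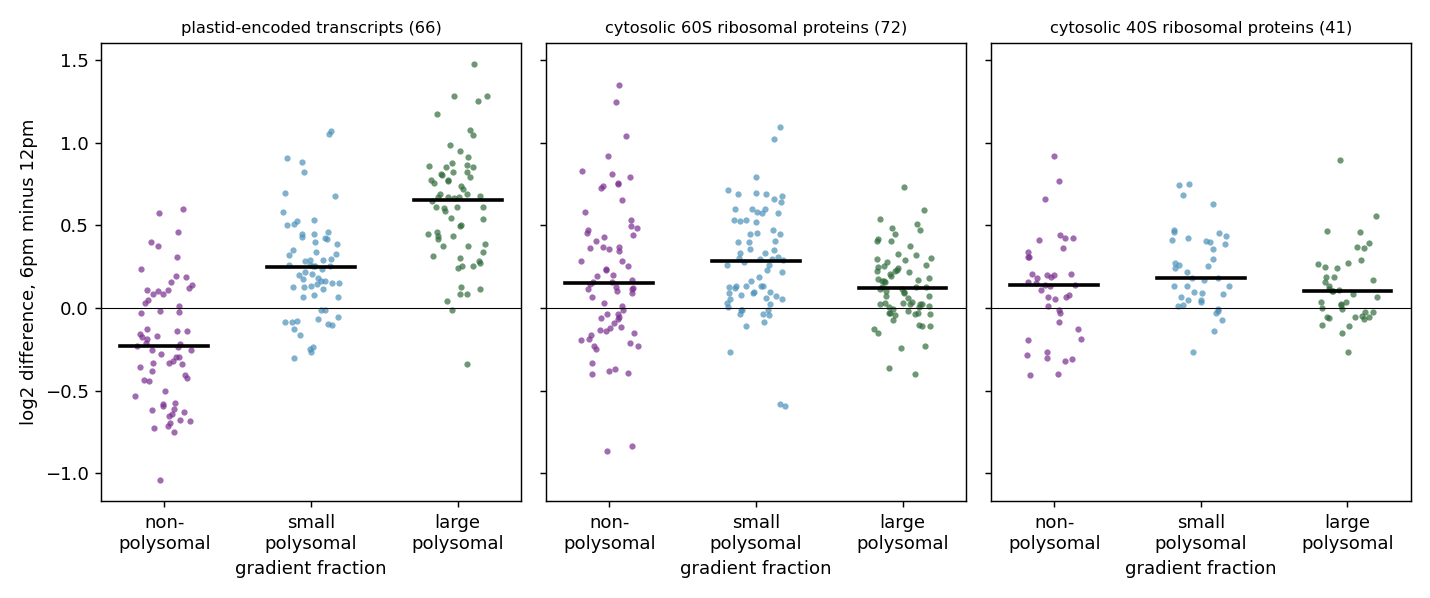
Log2 difference from 12pm to 6pm in each of 3 gradient fractions, 1 point per gene and a bar at the median, for 66 plastid-encoded transcripts, 72 cytosolic 60S and 41 cytosolic 40S ribosomal protein genes. The plastid medians run from -0.23 in non-polysomal RNA through 0.25 to 0.66 in large polysomal RNA, while those of the 60S list are 0.15, 0.29 and 0.12.

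Of 987 measured genes that carry a symbol, 108 were called, 58 higher and 50 lower. The genes of this and the next 3 paragraphs were sorted by their known role after their values were seen, 52 of the 108 in all, so their counts are a description. Of 12 genes sorted as chloroplast proteins 8 rose, with rpl32, ndhC and ATPC1 counted among the 12 and SIR, given above with sulfur metabolism, not. GSA1, glutamate-1-semialdehyde aminomutase of chlorophyll and heme synthesis, read 7.26, 7.09 and 7.89 at 12pm and 8.22, 8.86 and 9.06 at 6pm. It rose by 1.30 ± 0.22 (adjusted p = 0.000802) without overlap. CHL, the chloroplast lipocalin that protects thylakoid lipids, rose by 0.72 ± 0.12 (adjusted p = 0.000744), from 11.93, 11.89 and 12.18 to 12.71, 12.70 and 12.77. Both held with any array left out. SUFE2, a sulfur carrier for iron-sulfur clusters, rose by 1.27 ± 0.31 (0.0754 without 6pm replicate 2). PDF1B (peptide deformylase), THIC (thiamine synthesis), FTSZ2-2 (plastid division) and Cpn60beta2 (chaperonin) rose by 0.79, 0.72, 0.68 and 0.63, while FUG1 (plastid translation initiation) and CRR28 (an RNA editing factor) fell by 0.68 and 0.69. These 6 calls were lost without 6pm replicate 3 or 12pm replicate 1, and 5 of them also without 6pm replicate 2 and 12pm replicate 2, and Cpn60beta2 also without 12pm replicate 3, at adjusted p-values of up to 0.294 in CRR28.

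Of 6 called genes of mitochondrial proteins 4 rose and 2 fell, and all 4 called genes sorted under redox balance and detoxification rose. PRXIIF, the mitochondrial peroxiredoxin, read 6.89, 6.59 and 6.62 at 12pm and 7.86, 8.19 and 7.83 at 6pm. It rose by 1.26 ± 0.25 (adjusted p = 0.00218) and held with any array left out. MPPBETA, the processing peptidase for imported proteins, rose by 0.80 ± 0.17 (adjusted p = 0.00412) and also held, but was lost on the 12 non-polysomal arrays alone (adjusted p = 0.0666). FRO1 (FROSTBITE1), a subunit of respiratory complex I, rose by 0.95 ± 0.23 (adjusted p = 0.00950, lost without 6pm replicate 3 or 12pm replicate 1, up to 0.0878), and MAB1, of pyruvate dehydrogenase, by 0.69 ± 0.15 (0.0613 without 12pm replicate 1). ETFQO, which takes electrons from amino acid breakdown, fell by 0.60 ± 0.18 beside MCCA (adjusted p = 0.0332, lost without 6pm replicates 2 or 3 or 12pm replicates 1 or 2). The glutaredoxin GRXC2 rose by 0.87 ± 0.20 (adjusted p = 0.00626), from 10.64, 10.58 and 10.56 to 11.23, 11.61 and 11.56, and held with any array left out. The glutathione transferase GSTU20 rose by 1.48 ± 0.35 (adjusted p = 0.00783, lost without 6pm replicates 2 or 3 or 12pm replicate 1, up to 0.0560).

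Of 6 protease genes 4 rose and 2 fell, and so did 4 and 2 of 6 ubiquitin genes. The serine carboxypeptidase SCPL49 rose by 1.12 ± 0.23 (adjusted p = 0.00365) and held with any array left out. The vacuolar processing enzyme GAMMA-VPE rose by 0.84 ± 0.21 and the carboxypeptidase scpl29 by 1.00 ± 0.24, both lost without 6pm replicate 2 or 12pm replicate 1, and the first also without 6pm replicate 3 (adjusted p up to 0.0907 and 0.103). The subtilases S1P and SBT3.5 fell by 1.01 ± 0.25 and 1.09 ± 0.28 and were lost without 6pm replicate 2 or 12pm replicate 1, the second also without 6pm replicate 3. MAP1C, a methionine aminopeptidase that trims new proteins, rose by 1.56 ± 0.21 (adjusted p = 2.98e-05), from 8.40, 8.94 and 9.02 to 9.79, 10.86 and 10.40, and held with any array left out. Beside PUB25 and PUB26 the ubiquitin genes included UBP15, a ubiquitin protease that controls leaf growth, which fell by 0.54 ± 0.14 (adjusted p = 0.0138, lost without 6pm replicates 2 or 3 or 12pm replicate 2).

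Of 7 nuclear genes 6 fell, among them LD (LUMINIDEPENDENS, a flowering time regulator) by 0.71 ± 0.20, the GAGA-binding factor BPC1 by 0.51 ± 0.12, the DNA ligase ATLIG4 by 0.86 ± 0.23 and the RNA polymerase subunit NRPC2 by 0.71 ± 0.22. All 4 were lost without 6pm replicate 2, at adjusted p-values of up to 0.120, and all but BPC1 also without 12pm replicate 1. LD was also lost without 6pm replicate 3 and 12pm replicate 2, and NRPC2 without 6pm replicates 1 and 3 and 12pm replicate 3. Of 7 genes of the cytoskeleton and membrane traffic 4 rose and 3 fell, and of 4 cell wall and growth genes 2 and 2. NET1D, an actin-binding protein, read 4.65, 4.50 and 4.37 at 12pm and 3.34, 3.32 and 3.43 at 6pm. It fell by 1.15 ± 0.28 (adjusted p = 0.00934) and held with any array left out. The cellulose synthase-like CSLD2 of root hairs and tip growth fell by 0.92 ± 0.20 (adjusted p = 0.00431), from 6.03, 6.12 and 6.07 to 5.37, 4.89 and 5.19, and TUB9, a beta-tubulin, rose by 0.87 ± 0.18 (adjusted p = 0.00426). Both held with any array left out and were lost on the 12 non-polysomal arrays alone (adjusted p = 0.0668 and 0.0512). Falls outside these roles that also held were those of the beta-glucosidase BGLU40 (-1.19 ± 0.24), the cytochrome P450 CYP71B26 (-1.13 ± 0.20) and the manganese transporter MTP11 (-0.82 ± 0.17), the last of which was lost on the 12 arrays alone (adjusted p = 0.0562).

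**Figure D5:**
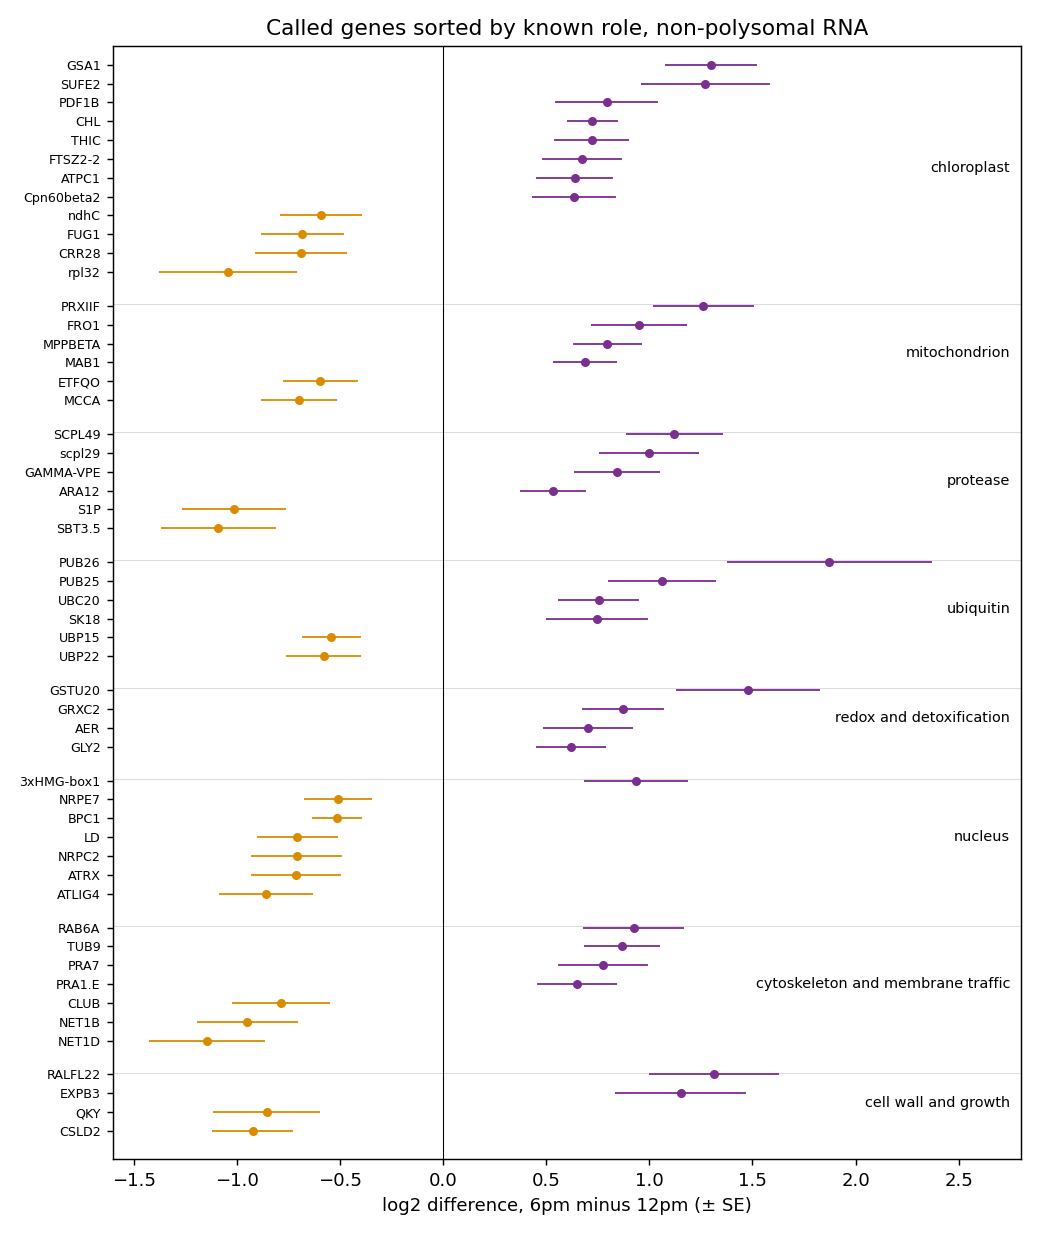
Log2 difference from 12pm to 6pm in non-polysomal RNA with its SE for the 52 called genes given a role, grouped by role and coloured by direction. In the chloroplast group 8 of 12 lie to the right of 0, and in the nucleus group 6 of 7 lie to the left.

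In the other fractions fewer probe sets passed the test over the same 6 h. In small polysomal RNA 599 (4.74%) passed, 390 of them higher (3.09%). In large polysomal RNA 184 (1.46%) passed, 117 of them higher (0.926%). Of the 718 called higher in non-polysomal RNA, 229 were also called higher in small polysomal RNA, which is 31.9% of the first list and 58.7% of the second. In large polysomal RNA 59 were, or 8.22% and 50.4%. Of the 760 called lower, 128 (16.8% and 61.2%) were also called lower in small polysomal and 32 (4.21% and 47.8%) in large polysomal RNA. The median difference of the probe sets called higher was 0.81 in non-polysomal, 0.58 in small polysomal and 0.28 in large polysomal RNA, and of those called lower -0.73, -0.41 and -0.24. They were chosen on the first of these values, so its size is partly a matter of selection.

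Whether the change itself differed between fractions was tested as the non-polysomal minus the polysomal difference. With the 36 arrays taken as independent 0 probe sets passed (0%) against large polysomal RNA in limma, where 1452 had an unadjusted p under 0.05, and 0 (0%) against small polysomal RNA, where 406 did. Fractions of equal time and replicate number, taken as 1 extract, deviated together. With the extract as a random block 477 passed against large polysomal RNA (3.78%), 260 positive and 217 negative (1.72%). Against small polysomal RNA 1 passed (0.00791%). Of the 477, 247 were called in non-polysomal and 30 in large polysomal RNA. The differences of differences that follow are from the fit with that block and were lost without it. The changes within 1 fraction are from the fit without the block.

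The largest positive difference of a named gene was that of the heat response gene AT1G53540 (2.12 ± 0.45, adjusted p = 0.0115), and the fourth that of AT5G47600 (1.71 ± 0.46, adjusted p = 0.0319). Both came from the large polysomal arrays, where the means went from 4.58 to 2.79 and from 4.98 to 3.29, while the non-polysomal differences were 0.33 and 0.02. In non-polysomal RNA AT1G53540 read 2.74, 2.15 and 2.15 at 12pm and 2.67, 2.62 and 2.74 at 6pm. These values lie at or near the lowest of any array (2.15), so a fall there could hardly show. Between AT1G53540 and AT5G47600 stood AT4G33550 and AT1G48750, which changed in non-polysomal RNA. AT1G48750 read 6.77, 7.15 and 6.78 at 12pm and 8.22, 8.87 and 8.74 at 6pm there, while it differed by 0.17 in small and -0.31 in large polysomal RNA. The difference of differences was 2.01 ± 0.46 (adjusted p = 0.0153), and in AT4G33550 2.09 ± 0.46 (adjusted p = 0.0127), with -0.41 in large polysomal RNA. Of the 108 called genes with a symbol 18 differed from large polysomal RNA, 13 with a positive and 5 with a negative difference. Of all 1478 called probe sets 247 did, a similar share, so the count gives no result about genes with a symbol. PRXIIF differed by 0.03 in large polysomal RNA, so that its difference of differences was 1.23 ± 0.27 (adjusted p = 0.0128). FRO1 (0.99 ± 0.24), scpl29 (1.21 ± 0.28), GAMMA-VPE (0.94 ± 0.24), RAB6A (1.01 ± 0.26, a small GTPase of Golgi traffic) and PMEAMT (0.87 ± 0.19, an enzyme of choline synthesis) had similar values, with differences of -0.22 to -0.02 in large polysomal RNA. COR27, which rose in all 3 fractions, differed by 0.90 ± 0.24 (adjusted p = 0.0301).

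Among the 4 largest negative differences AT2G17300 (-1.63 ± 0.33, adjusted p = 0.00816) also came from large polysomal RNA, where it rose by 1.58 ± 0.30, with -0.05 in non-polysomal RNA. By contrast AT5G07740 fell in non-polysomal RNA and read 4.70 and 4.79 (means of 12pm and 6pm) in large polysomal RNA, a difference of differences of -1.55 ± 0.32 (adjusted p = 0.0101). NET1D (-1.16 ± 0.31, adjusted p = 0.0328) and CSLD2 (-0.90 ± 0.24, adjusted p = 0.0284) differed by 0.02 and -0.02 in large polysomal RNA. In PWD and AT1G07050 the rise was larger on polysomes: PWD rose by 1.15 ± 0.22 in large polysomal RNA and differed by 0.28 in non-polysomal RNA (difference -0.87 ± 0.24, adjusted p = 0.0348), and AT1G07050 rose by 2.78 against 1.66 (-1.12 ± 0.31, adjusted p = 0.0373). Over all probe sets 6443 of 12635 had a negative difference of differences, with a median of -0.01, and 217 (1.72%) passed as negative. The 66 plastid-encoded genes were read on the same arrays and are not independent observations. Of them 63 had a negative difference of differences, with a median of -0.85, and 13 passed. They were matK, ndhC, psaJ, psbI, psbJ, psbZ, rpl32, rpl33, rpoA, rps4, rps16, rps18 and rps19. The largest were those of psaJ (-1.65 ± 0.41, adjusted p = 0.0234) and rps16 (-1.71 ± 0.41, adjusted p = 0.0201). The latter read 12.93, 12.64 and 12.22 at 12pm and 12.22, 12.01 and 12.30 at 6pm in non-polysomal RNA and went from a mean of 9.22 to 10.51 in large polysomal RNA. Both plastid medians kept their signs under median centring, cyclic loess, quantile and spike-in scaling, with -0.32 to -0.11 in non-polysomal RNA.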

How the data were processed

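RNA was separated into 3 fractions, and the RNA of each was hybridised to an Affymetrix array. Arrays of equal time and replicate number were taken as fractions of 1 extract, 12 extracts in all. The deposited values are log2 expression values that the authors made with GCRMA, with R 3.1 and affy 1.42.3 per the submitters' processing notes. Other settings are not given in the sources used here. AFFX probe sets (64) were left out, and probe sets at 5 or more on at least 3 of 36 arrays kept. Gene names came from the platform annotation and the RefSeq TAIR10.1 gene table, with 1 probe set per named gene, the one with the highest mean. Depth does not apply to arrays, and their number limits the precision.

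A linear model of the 12 groups (residual degrees of freedom 24) was fitted in limma 3.58.1 (R 4.3.3, statmod 1.5.0 for the block), and probe sets were called at a Benjamini-Hochberg adjusted p under 0.05 over all 12635 probe sets. The fit without the block was tested on simulated data with independent noise on each array. That does not test the fit with the block. Named genes are the 12 largest called rises and falls without overlap, all clock and clock output genes, up to 3 members with the smallest p of each other list, and the 4 largest differences between fractions in each direction. Others were chosen after their values were seen. Members and lists were chosen with earlier results of these data known. Of 26 lists 23 had measured members, and ribosomal lists were taken by locus.

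The pairing of fractions by equal numbers rests on correlations of deviations from the group means. All 36 pairs of arrays of 1 time and number in different fractions correlated above 0.1 (median 0.42, lowest 0.14). Of 72 pairs of unequal number 4 did (median -0.21, highest 0.19). Deviations from a group mean cancel out within the group, so positive correlations at equal numbers push the others down. The pairs of unequal number are therefore no separate support for the pairing. On the pairs of equal number alone the extract was taken as a random block (consensus correlation 0.355). Alternatives were other sets of arrays, blocks, filters, scalings, a trended robust fit, 1 probe set per gene, and arrays left out. Python 3.11.15 and matplotlib 3.10.9 drew the figures.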

Additional observations from a re-analysis of the deposited data

Results flagged for a closer look

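The change from 12pm to 6pm differed between non-polysomal and large polysomal RNA in 477 probe sets when the extract was a random block in limma. A test of the difference itself brought this result here. Of the 260 positive differences, 223 had a negative difference from 12pm to 6pm in large polysomal RNA, and of the 217 negative ones 189 had a positive one. The probe sets were selected on the non-polysomal minus the large polysomal change, which favours these signs, and 30 of the 477 were called in large polysomal RNA itself. With arrays taken as independent 0 passed and 1452 had an unadjusted p under 0.05.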

How the results depend on the processing

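Of the 39 called genes named by the rule, 18 kept their call whichever of the 6 arrays was left out. For the 1478 calls in non-polysomal RNA the counts were 220 with only the arrays of the fractions compared, 602 with only those of the groups compared, 4 with equal spike-in signal and 690 with 1 probe set per gene, and ranged from 20 to 1567 with an array or a replicate number left out. The lowest was without replicate 2. With the replicate block it was 2159. The numbers pair 12pm with 6pm arrays by name only (correlations of deviations 0.16, -0.02 and 0.20). It was 1178 with no filter, 1336 with a filter at 7, 1520 with median centring, 1684 with cyclic loess, 1418 with quantile normalization, 1519 with a trended robust fit and 1497 with the extract as a block. For 2-fold calls (305) the counts were 143 with the fractions compared, 4 with equal spike-in signal and 143 with 1 probe set per gene, and 20 to 474 with arrays left out. The difference to large polysomal RNA passed in 1 with the groups compared, 70 with the replicate block, 477 with the extract block, 36 with no filter and 1 with cyclic loess (0 to 10 with arrays left out). That to small polysomal RNA passed in 1 with the extract block and 5 with no filter (0 with arrays left out). Large polysomal calls (184) were 65 with the groups compared, 531 with the replicate block, 30 with equal spike-in signal and 76 with 1 probe set per gene (9 to 258 with arrays left out). Small polysomal calls (599) were 206, 1104, 4 and 232 (12 to 662). Without the filter 10 of the 39 named calls were lost, and with the fractions compared 22. No named difference turned its sign with a call. The cause of these moves was not tested.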
